A study of Homo sapiens with 6 samples.

Results

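The MAP kinase phosphatases of the dual-specificity phosphatase (DUSP) family were followed in U-87 glioma cells with lowered P68. The group comprised 10 genes fixed by name, DUSP1, DUSP2, DUSP4, DUSP5, DUSP6, DUSP7, DUSP8, DUSP9, DUSP10 and DUSP16, out of 18417 genes measured with a single gene symbol. Each of the 10 was represented by 1 probe set, so no choice between probe sets was needed. RNA was profiled on 6 Affymetrix arrays. Of these, 3 carried the label P68 knockdown and the other three the label P68 wild type. U-87 is an established human glioma line, and all cells were grown in DMEM with fetal bovine serum. The treatment note names transfection with siP68 or with NC, and NC is not tied by name to the arrays labelled wild type. P68, an RNA helicase of the DEAD-box family, is the product of DDX5, and the study's title ties it to DUSP5. Nothing in the labels states that replicate arrays are separate cultures. All p-values therefore rest on array-to-array spread, and that spread may be purely technical.

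MAP kinases are switched on by phosphorylation of a threonine and a tyrosine in their activation loop, and the DUSP phosphatases switch them off by removing both phosphates. They are usually placed in 3 classes. DUSP1, DUSP2, DUSP4 and DUSP5 are nuclear and are induced by growth factors or stress. DUSP6, DUSP7 and DUSP9 are cytoplasmic and act mainly on ERK, whereas DUSP8, DUSP10 and DUSP16 act mainly on JNK and p38. Several are themselves transcribed in response to ERK activity, which makes the family a feedback arm of the pathway in glioma and other cells with high growth factor signalling.

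The deposited values are log2 signals, so a difference of 1 is a doubling. DDX5, the targeted gene, read 9.47, 9.79 and 9.91 on knockdown arrays 1, 2 and 3, and 10.09, 10.25 and 10.30 on the wild-type arrays. All knockdown arrays lay below all wild-type arrays, in the direction of the labels. This was a difference of -0.49 ± 0.13 (log2, SE), which leaves 71.2% of the wild-type signal (95% interval 58.4% to 86.9%). Its adjusted p over all genes was 0.902 (limma, Benjamini-Hochberg), so the targeted gene itself did not pass 0.05. The exact permutation test over the arrays (two-sided) gave p = 0.1 for it. In bulk RNA, fewer cells that express a gene and less of its RNA per cell cannot be told apart. The array medians lay between 4.32 and 4.37, and pairs of arrays across the groups correlated about as closely (r = 0.980 to 0.990 over all probe sets) as pairs within the knockdown group (r = 0.979 to 0.986), and pairs within the wild type lay at r = 0.987 to 0.990. Of 12 glial and glioma-line markers, 6 lay above the 95th percentile of the olfactory receptor genes described below, among them VIM (mean 7.60 over the 6 arrays), SOX9 (6.34) and GFAP (5.62), while CD44 (3.59), SOX2 (3.75) and S100B (3.17) did not.

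The 10 genes spanned a wide range of signal. Across all genes the median signal was 4.67. The 341 olfactory receptor genes, which serve as a reference for genes with no known role in glioma cells, had a median of 3.06 and a 95th percentile of 4.71. Of the 10 phosphatase genes, 7 lay above that percentile and 3 (DUSP6, DUSP4 and DUSP10) at or below it. No detection calls were used, and signals of different probe sets depend on their probes, so the order below is one of signals and not of transcript numbers.

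DUSP1 was the brightest, with a mean of 8.71 over the 6 arrays, at the 99.2nd percentile of all genes. DUSP7 followed at 7.46 and the 97.2nd percentile. These 2 were separated from each other and from every dimmer member on each of the 6 arrays. DUSP9 (mean 6.61) and DUSP2 (6.43) overlapped, with DUSP9 brighter on 4 of 6 arrays. DUSP8 (6.04) lay below DUSP2 on each of the 6 arrays, although the ranges of the pair overlapped. DUSP16 (5.60) and DUSP5 (5.54) could not be ordered, since each was brighter on 3 arrays. DUSP6 (4.61) and DUSP4 (4.38) likewise each led on 3 arrays. DUSP10 was the dimmest at 3.08, at the 14.3rd percentile and close to the median olfactory receptor gene.

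**Figure D1:**
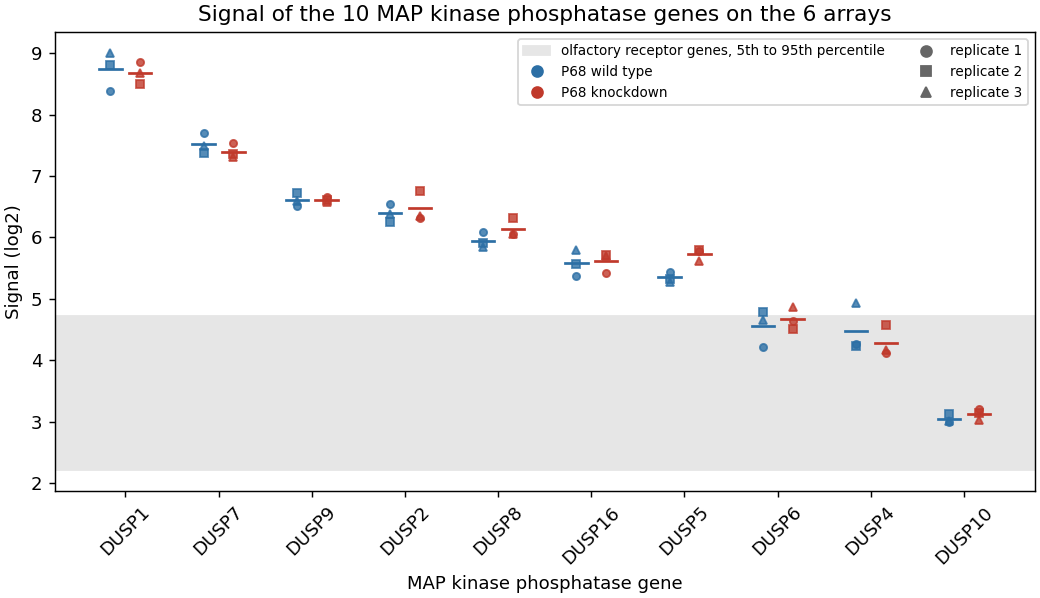
Log2 signal (vertical axis) of the 10 MAP kinase phosphatase genes on the 3 P68 wild-type arrays (blue) and the 3 P68 knockdown arrays (red), ordered by mean signal; symbols mark the replicate numbers, bars the group means, and the grey band the 5th to 95th percentile of 341 olfactory receptor genes. The members run from DUSP1 near 8.71 down to DUSP10 at 3.08, and DUSP5 is the only member whose red and blue points do not overlap.

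DUSP5 differed most between the groups. DUSP5 (probe set 7930413), a nuclear phosphatase selective for ERK, gave 5.78, 5.80 and 5.62 on the 3 knockdown arrays, in replicate order, and 5.44, 5.32 and 5.28 on the wild-type arrays. All knockdown values lay above all wild-type values, with a gap of 0.18 between the nearest pair. Mean signals were 5.73 ± 0.10 against 5.35 ± 0.08 (SD, n = 3 each), and the groups differed by 0.39 ± 0.10 (log2, SE). Knockdown arrays thus read 131% of wild-type arrays (95% interval 112% to 153%). The difference exceeded the spread within either group, but the adjusted p over all genes was 0.902 (limma, Benjamini-Hochberg). An exact permutation test over the arrays (two-sided) gave p = 0.1, the smallest that 3 arrays against 3 allow. Since the study's title names DUSP5, the direction found on these same arrays is not independent evidence.

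Set among all genes, the DUSP5 difference was large but not rare. An absolute log2 difference at least that of DUSP5 was reached by 1.35% of the 18417 genes, and 238 genes had a larger one. By unadjusted limma p-value (0.0036) DUSP5 ranked 38th. Groups did not overlap for 10.1% of all genes, and the knockdown was the higher group in 5.98%. Over the 10 phosphatase genes the groups did not overlap for 1, which equals 1 in 10 and is close to that background. No gene passed an adjusted p of 0.05 (0% of those tested), and none of the 10 members did. At an unadjusted p under 0.05, limma gave 5.09% of all genes, 3.02% with the knockdown higher, and 1 of the 10 members, DUSP5.

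**Figure D2:**
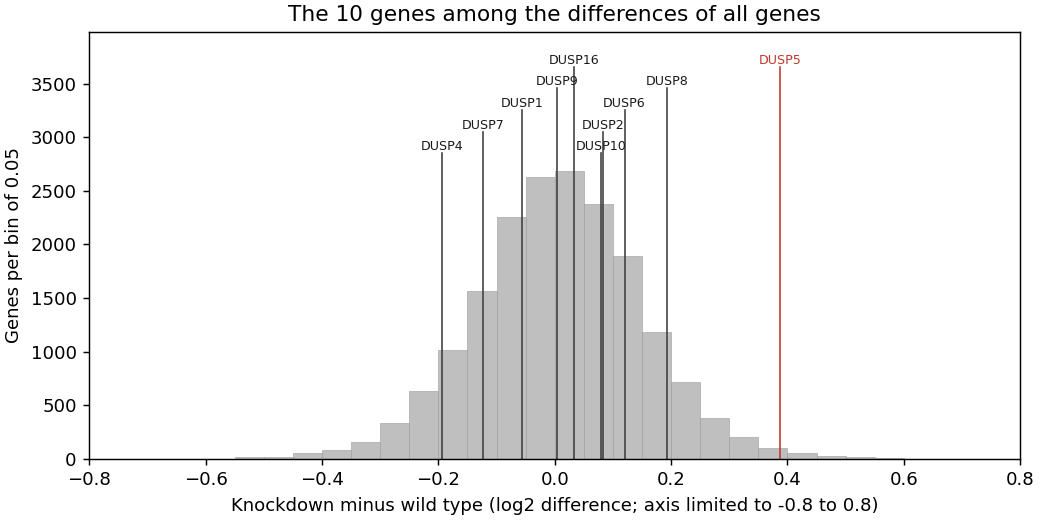
Histogram of the log2 difference, knockdown minus wild type (horizontal axis), of all 18417 genes in bins of 0.05, with vertical lines at the 10 MAP kinase phosphatase genes (DUSP5 in red). DUSP5 at 0.39 lies in the upper tail, and the other 9 lie between -0.19 and 0.19, within the bulk of the genes.

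The groups overlapped for each of the other nuclear members. DUSP1 (probe set 8115831), the immediate early phosphatase of ERK, JNK and p38, gave 8.86, 8.50 and 8.67 in the knockdown against 8.39, 8.81 and 9.0 in the wild type. Wild-type replicates 1 and 3 were the lowest and the highest of the 6 arrays, so the knockdown values fell inside the wild-type range. Its log2 difference was -0.06 ± 0.16 (SE) by limma, and it turned to 0.04 with repeated quantile normalisation and to 0.02 with cyclic loess. DUSP2 (probe set 8053882), first described in activated lymphocytes, gave 6.32, 6.76 and 6.34 in the knockdown against 6.54, 6.25 and 6.38. Knockdown replicate 2 alone stood above the others, and the log2 difference was 0.08 ± 0.14 (SE). Without that array the difference was -0.06.

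DUSP4 (probe set 8150076), a nuclear relative of DUSP1, was the most variable member. It gave 4.11, 4.58 and 4.16 in the knockdown against 4.27, 4.23 and 4.93 in the wild type. Wild-type replicate 3 was the highest array and knockdown replicate 2 the next. The log2 difference of -0.19 ± 0.19 (SE) was the lowest of the family. Leaving out wild-type replicate 3 turned it to 0.03, and leaving out knockdown replicate 2 gave -0.34. Its 95% interval, from -0.62 to 0.23, holds changes in both directions. The mean DUSP4 signal lay below the 95th percentile of the olfactory receptor genes, where background and expression look alike here.

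The 3 cytoplasmic ERK phosphatases had overlapping groups and intervals that included 0. DUSP6 (probe set 7965335), the best-known feedback phosphatase of ERK, gave 4.64, 4.50 and 4.87 in the knockdown against 4.21, 4.78 and 4.66 in the wild type. Wild-type replicate 1 was the lowest array and the other five overlapped. The log2 difference was 0.12 ± 0.16 (SE), and -0.05 without wild-type replicate 1. The mean DUSP6 signal also lay below the 95th percentile of the olfactory receptor genes, so it cannot be told from background here. DUSP7 (probe set 8087833), close to DUSP6 in sequence, gave 7.53, 7.35 and 7.30 against 7.70, 7.37 and 7.48. It was the brightest of this class, its groups overlapped, and its log2 difference was -0.12 ± 0.12 (SE). DUSP9 (probe set 8170695) gave 6.65, 6.60 and 6.58 against 6.51, 6.72 and 6.59. It was the steadiest member, with an SD of 0.07 over the 6 arrays. Its log2 difference was 0.003 ± 0.10 (SE), with a 95% interval of -0.22 to 0.23, and its sign was negative (-0.01) with the arrays centred on their medians.

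Among the JNK and p38 phosphatases, DUSP8 came nearest to DUSP5. DUSP8 (probe set 7945641) gave 6.05, 6.31 and 6.06 in the knockdown against 6.08, 5.91 and 5.85 in the wild type. Knockdown replicates 1 and 3 lay just below wild-type replicate 1 and above the other wild-type arrays. The groups differed by 0.19 ± 0.11 (log2, SE), which puts the knockdown at 114% of the wild-type signal, with a 95% interval of 95.8% to 136%. Its adjusted p was 0.902 by limma, and its unadjusted p was 0.122. DUSP10 (probe set 7924450) gave 3.20, 3.14 and 3.03 against 3.00, 3.12 and 3.01, a log2 difference of 0.08 ± 0.10 (SE) at a signal that cannot be told from background here. DUSP16 (probe set 7961371), which acts mainly on JNK, gave 5.42, 5.72 and 5.70 against 5.37, 5.57 and 5.80. Replicate 1 was the lowest array in each of its groups, and the log2 difference was 0.03 ± 0.13 (SE).

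**Figure D3:**
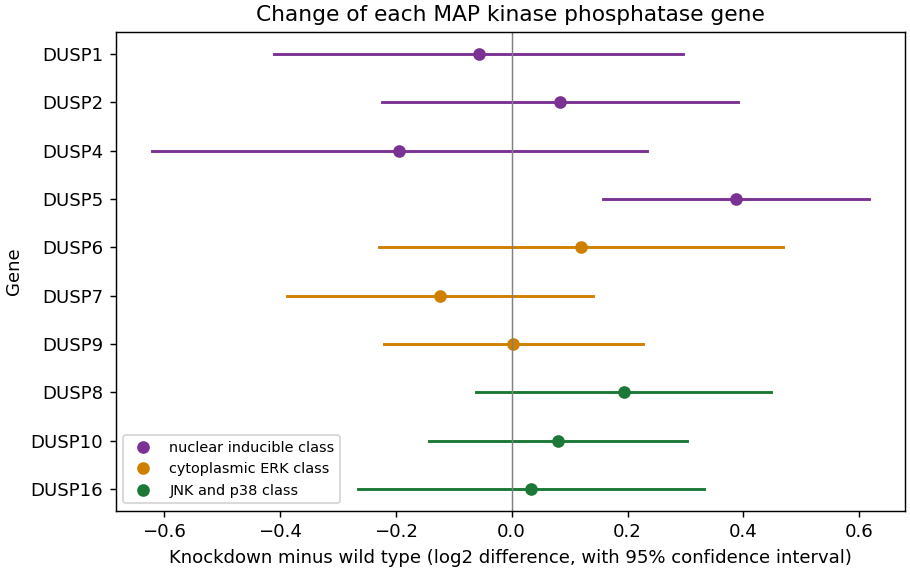
Log2 difference, knockdown minus wild type, of each MAP kinase phosphatase gene (points) with its 95% confidence interval from limma (lines), coloured by class. The interval of DUSP5 runs from 0.16 to 0.62, and the intervals of the other 9 include 0.

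In all, 7 of the 10 members had differences above 0 and 3 below, where 52.5% of all genes lay above 0. The median over the members was 0.06, against 0.01 over all genes. The count above 0 was 6 with the arrays centred on their medians and 8 with repeated quantile normalisation or cyclic loess. Without wild-type replicate 1 it was 4, and the median became -0.04. That array was the lowest of the 6 for 5 members, DUSP1, DUSP6, DUSP9, DUSP10 and DUSP16. All 9 members other than DUSP5 had 95% intervals that included 0, with bounds reaching from -0.62 to 0.47, so changes as large as that of DUSP5 lay within some of these intervals.

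**Figure D4:**
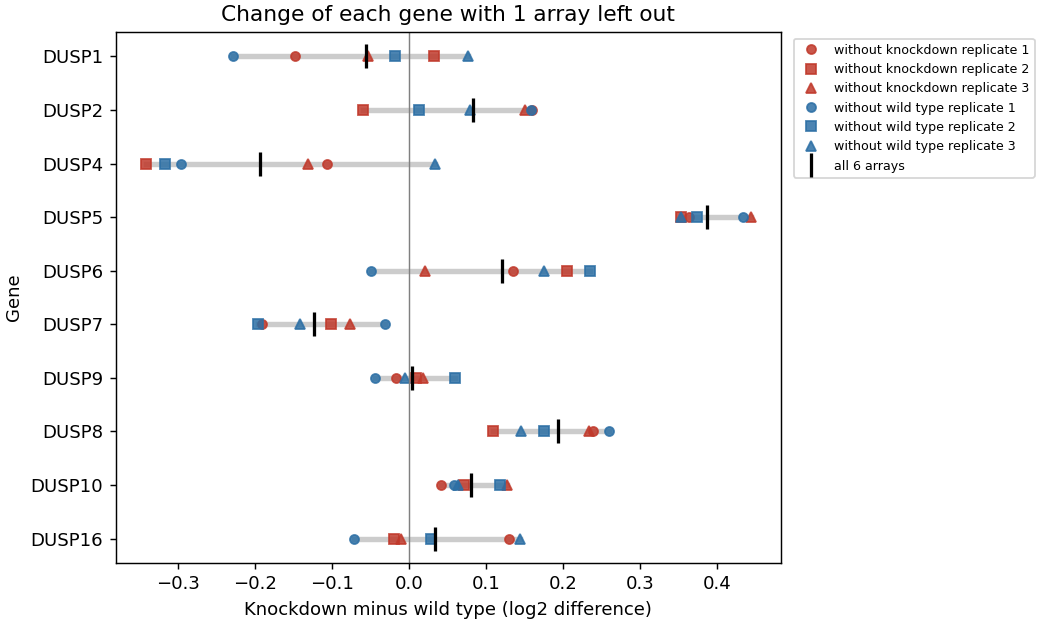
Log2 difference, knockdown minus wild type (horizontal axis), of each MAP kinase phosphatase gene with all 6 arrays (black tick) and with each array left out in turn (red symbols, a knockdown array; blue symbols, a wild-type array). DUSP5 stays between 0.35 and 0.44, while DUSP1, DUSP2, DUSP4, DUSP6, DUSP9 and DUSP16 each cross 0.

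Whether DUSP5 moved apart from its family was tested by subtracting each other member from DUSP5 on every array, in 9 pairs. The change of DUSP5 was the larger in all 9, by 0.19 to 0.58 on the log2 scale. That sign was fixed once DUSP5 had the largest difference of the family, so it adds nothing to that ranking. All 9 pairs also share the same DUSP5 values and are not independent. Several of the differences in change rested on single arrays. Without wild-type replicate 3 the difference from DUSP4 was 0.32 in place of 0.58, that from DUSP1 0.28 in place of 0.44 and that from DUSP16 0.21 in place of 0.35. Without knockdown replicate 1 the difference from DUSP8 was 0.125 in place of 0.19. For DUSP6 the value of 0.27 became 0.14 when wild-type replicate 2 was left out and 0.48 when wild-type replicate 1 was. In exact permutation tests over the arrays (two-sided), 5 pairs reached p = 0.1, the smallest value possible, and the highest p was 0.3. After Benjamini-Hochberg adjustment over the 9 pairs the values ran from 0.18 to 0.30, so no pair could pass a threshold of 0.05 in this design.

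The clearest separation was from DUSP7. DUSP5 minus DUSP7 was -1.75, -1.55 and -1.68 in the knockdown against -2.26, -2.05 and -2.20 in the wild type. The groups did not overlap, and the difference in change was 0.51 ± 0.09 (SE), with a 95% interval of 0.27 to 0.75 and an exact permutation p of 0.1. The intervals from DUSP9 (0.38, from 0.08 to 0.69) and DUSP10 (0.31, from 0.10 to 0.52) also lay above 0. DUSP5 minus DUSP4 did not overlap either, with a difference of 0.58 and a wide 95% interval of -0.23 to 1.39. The intervals were not adjusted over the pairs. DUSP4, DUSP6 and DUSP10 lay below the 95th percentile of the olfactory receptor genes, where background and expression look alike here. Their pairs may therefore set DUSP5 against background, and cannot show whether transcripts of these genes moved.

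With all 6 arrays, DUSP8 differed least from DUSP5. DUSP5 minus DUSP8 was -0.27, -0.51 and -0.44 in the knockdown against -0.64, -0.59 and -0.57 in the wild type. The groups did not overlap, yet the difference in change was 0.19 ± 0.07 (SE), with a 95% interval of -0.01 to 0.40 and an exact permutation p of 0.1. With 1 array left out, DUSP6 differed less than DUSP8 when that array was knockdown replicate 2 (0.15 against 0.245), wild-type replicate 2 (0.14 against 0.20) or wild-type replicate 3 (0.18 against 0.21). The remaining 4 pairs, with DUSP1, DUSP2, DUSP6 and DUSP16, overlapped between the groups, with differences of 0.44, 0.30, 0.27 and 0.35. The 95% interval of each of these included 0.

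The count of separated pairs was near its background over all genes. DUSP5 minus another gene gave groups that did not overlap for 65.3% of the other 18416 genes, and for 5 of the 9 members, or 55.6%. Without wild-type replicate 1 the count was 8 of 9, where the share over all genes was 82.8%. DUSP5 had the largest difference of the 10 members. With 3 arrays against 3, the exact permutation test could not call any pair different at a threshold of 0.05.

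**Figure D5:**
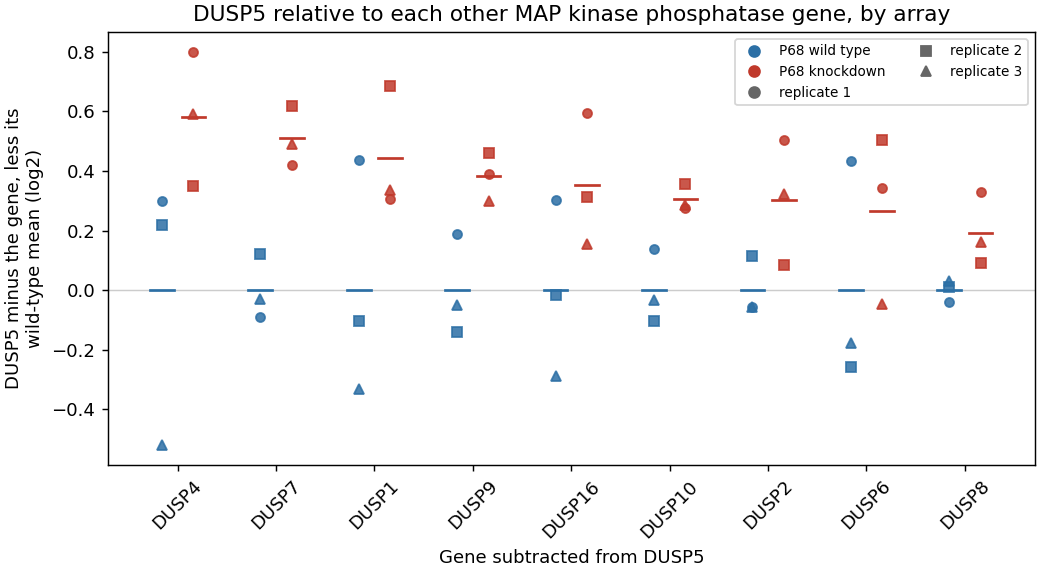
DUSP5 minus each other MAP kinase phosphatase gene on each array, less the mean of the wild-type arrays for that pair (vertical axis, log2), for wild type (blue) and knockdown (red); symbols mark the replicate numbers and bars the group means. The red means lie from 0.19 (DUSP8) to 0.58 (DUSP4) above the blue ones, and the groups overlap for DUSP1, DUSP2, DUSP6 and DUSP16.

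DUSP5 has a transcribed pseudogene, DUSP5P1, whose sequence likeness could let probes share signal. One DUSP5P1 probe set gave 3.29, 3.43 and 3.53 in the knockdown against 3.40, 3.29 and 3.16 in the wild type, and the other gave 3.66, 4.28 and 3.91 against 3.71, 3.81 and 2.98. Their log2 differences were 0.13 ± 0.11 and 0.45 ± 0.23 (SE), in the direction of DUSP5 (0.39), and the second was numerically the larger. Both probe sets overlapped between the groups. Both lay below the 95th percentile of the olfactory receptor genes, a range in which background and expression look alike here. Whether they share signal with DUSP5 was not tested.

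By shape over the 6 arrays, the genes nearest to DUSP5 among those at or above the median signal were SRP19, EXOC3L2 and ACTL9. Likeness was the root mean square difference between profiles, each centred on its own mean, and it was 0.037, 0.037 and 0.052 on the log2 scale. SRP19, a protein of the signal recognition particle, gave 6.71, 6.74 and 6.55 in the knockdown against 6.27, 6.23 and 6.20 in the wild type. Within the family the nearest profile was that of DUSP8, at 0.12, and the farthest that of DUSP4, at 0.41. SRP19, EXOC3L2 and ACTL9 were picked on these same arrays from a far larger pool than the 9 other members. Their smaller distances are therefore not like for like with that of DUSP8.

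Other genes around the MAP kinases were compared as lists, and no member of any passed an adjusted p of 0.05 (limma, 0% of all genes). Of 17 other dual-specificity phosphatases measured, 9 had differences above 0 and 8 below (median 0.06). At an unadjusted p under 0.05 there was 1 of 17, near the 5.09% of all genes. That gene was DUSP11, which acts on RNA, at a signal below the 95th percentile of the olfactory receptor genes, 3.66 ± 0.06 with knockdown against 3.89 ± 0.02 without (SD, n = 3 each). SSH3, a cofilin phosphatase, had the largest difference of the list at 0.34 ± 0.18 (SE). The list median was -0.007 without the dimmest 40% of genes. It was -0.03 when knockdown replicate 1 was left out and -0.005 when wild-type replicate 2 was.

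Of 9 other phosphatases and regulators acting on MAP kinases, 3 lay above 0 and 5 below (median -0.02). The protein phosphatase 2A catalytic subunits PPP2CB and PPP2CA gave the largest differences, -0.23 ± 0.12 and -0.13 ± 0.13 (SE). Of 15 MAP kinases and upstream kinases, the substrates of the family and their activators, 6 lay above 0 and 9 below (median -0.02). MAPK12, a p38 isoform, gave 5.88, 5.89 and 5.88 in the knockdown against 5.75, 5.53 and 5.61 in the wild type. Its groups did not overlap, as for 2 of the 15 genes of this list and 10.1% of all genes. The MAPK12 log2 difference was 0.25 ± 0.10 (SE) with an adjusted p of 0.902 by limma. MAPK8, which encodes JNK1, gave -0.24 ± 0.22 (SE).

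Of 18 ERK feedback and output genes, 10 lay above 0 and 8 below, with a median of 0.008 against 0.01 over all genes. IER2, an immediate early gene, gave 5.80, 5.88 and 5.82 in the knockdown against 5.43, 5.24 and 5.71 in the wild type, without overlap. Groups did not overlap for 2 of these 18 genes, against 10.1% of all genes. The adjusted p of IER2 was 0.902 by limma. SPRY1, an inhibitor of receptor tyrosine kinase signalling, gave -0.21 ± 0.13 (SE). Of 13 ERK substrates and regulators of DUSP transcription, 6 lay above 0 and 7 below (median -0.01), with the ETS factor ELK1 at 0.26 ± 0.17 and CREB1 at -0.23 ± 0.20 (SE).

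Markers of other cell types also had medians above 0. The medians were 0.09 for 6 oligodendrocyte and 8 neuron markers, 0.07 for 9 microglia markers and 0.06 for 6 endothelial markers, against 0.09 for the 12 glial markers and 0.04 for the olfactory receptor genes. The neuron median was -0.007 without the dimmest 40% of genes and 0.002 with probe sets averaged per gene. The summed linear signal of the oligodendrocyte markers was 214 to 228 in the knockdown against 185 to 198 in the wild type. For the microglia markers it was 253 to 260 against 224 to 251, for the endothelial markers 156 to 168 against 144 to 149, and for the neuron markers 285 to 377 against 283 to 383. Of these, 2 oligodendrocyte, 4 microglia, 2 endothelial and 4 neuron markers lay above the 95th percentile of the olfactory receptor genes, whereas MBP (4.31), MOG (4.01), AIF1 (2.84) and PECAM1 (4.28) did not. Sums of linear signal weigh the brightest genes most. CNP (mean 6.29) was the brightest of the oligodendrocyte markers and CLDN5 (5.81) of the endothelial markers. TYROBP (6.18), the brightest of the microglia markers, had a log2 difference of 0.03 ± 0.11 (SE). Single markers differed by amounts like that of DUSP5. The log2 difference was 0.50 ± 0.15 (SE) for CD68 among the microglia markers, 0.38 ± 0.11 for CNP among the oligodendrocyte markers, 0.37 ± 0.11 for AQP4 among the glial markers, 0.32 ± 0.11 for STMN2 among the neuron markers and 0.27 ± 0.10 for CLDN5 among the endothelial markers. Each of these 5 had the largest difference of its list. The groups did not overlap for any of them, and each had an adjusted p of 0.902 by limma. Markers below 0 included NEFL (neuron, -0.23 ± 0.35, SE), VIM (glial, -0.20 ± 0.17) and ITGAM (microglia, -0.14 ± 0.11). Differences lay above and below 0 for 9 and 3 glial, 5 and 3 neuron and 7 and 2 microglia markers. For the oligodendrocyte markers these counts were 6 and 0, and for the endothelial markers 5 and 1. Over all genes 52.5% lay above 0. Groups did not overlap for 2 of 12 glial, 2 of 8 neuron and 2 of 6 oligodendrocyte markers. The same held for 2 of 9 microglia and 1 of 6 endothelial markers, against 10.1% of all genes. Among the markers without overlap, SLC1A3 of the glial list alone was lower in the knockdown (-0.17 ± 0.10, SE). AQP4 (mean 2.90), SLC1A3 (3.70) and STMN2 (4.18) lay below the 95th percentile of the olfactory receptor genes, where background and expression look alike here. The part of these markers in the DUSP5 difference was not tested.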

How the data were processed

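The authors deposited 1 table of log2 signals for 29096 probe sets on 6 arrays, made with RMA per the submitters' processing notes. Its software, version and any filters were not given in those sources. RMA scales arrays to each other, which can hide a shift common to most genes; the deposited array medians still differed slightly (4.32 to 4.37). Probe annotation gave 19460 probe sets 1 gene symbol, and per gene the probe set with the highest mean was kept. All 18417 genes were fitted in R 4.3.3 with limma 3.58.1 (eBayes after lmFit, two-sided tests, no term other than group), with Benjamini-Hochberg adjustment over all genes. Pairs of genes were compared by exact permutation over arrays, with 95% intervals from the pooled spread of the 6 arrays. Precision is limited by the few arrays: the median SE over all genes was 0.12.

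The members and lists were chosen with earlier results of these data known. Named genes are the members, DDX5, the 2 largest differences of each pathway list and the 3 profiles nearest to DUSP5. The markers named were picked after their values were seen. Of 19 listed other dual-specificity phosphatases 17 were measured, of 20 MAP kinases and upstream kinases 15, and of 14 ERK substrates and regulators 13; the rest were not analysed here.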

Additional observations from a re-analysis of the deposited data

How the results depend on the processing

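DUSP5 stayed above 0 and had the largest difference of the family under each of its 15 alternatives (other scalings, a filter on dim genes, other probe set rules, other variance models, the replicate block and each array left out). Its log2 difference ran from 0.37 to 0.39 over the settings that keep all arrays and from 0.35 to 0.44 with 1 array left out, and its adjusted p by limma from 0.661 to 0.998. No member passed an adjusted p of 0.05 under any of them. DDX5 ran from -0.58 to -0.36 with 1 array left out. DUSP7, DUSP8 and DUSP10 also kept their sign. DUSP9 was -0.013 with arrays centred on their medians and -0.016 with array weights, and DUSP1 was 0.043 with repeated quantile normalisation and 0.0204 with cyclic loess. With 1 array left out, differences ran from -0.23 to 0.077 for DUSP1, -0.06 to 0.16 for DUSP2, -0.34 to 0.033 for DUSP4, -0.05 to 0.24 for DUSP6, -0.045 to 0.06 for DUSP9 and -0.072 to 0.14 for DUSP16; the cause was not tested. The 9 pair differences were run under 11 alternatives (3 scalings, the mean over probe sets, the replicate block and each array left out). They stayed above 0 in these, which follows from DUSP5 having the largest difference under each. With 1 array left out the lowest was 0.125 (DUSP8) and the highest 0.73 (DUSP4). With 1 array left out the groups did not overlap for 1 or 2 members, where the share over all genes was 16.8% to 23.3%.

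Whether the replicate numbers pair the samples could not be settled from these arrays. Deviations of same-numbered arrays from their group means correlated with r = 0.27, -0.03 and 0.13. Those of differently numbered arrays correlated with r from -0.25 to 0.17. With the replicate block the DUSP5 difference was 0.39 with an adjusted p of 0.791 (limma), and no call changed. Depth does not apply to arrays, and 3 members lay at signals where background cannot be told from expression.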
